A study of Mus musculus with 18 samples.

Results

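The genes of cholesterol synthesis, uptake, esterification and efflux were examined in mouse liver across 6 groups of 3 RNA-seq libraries. The members were chosen by gene symbol, not by level, and all 30 were found among the 19057 genes of the deposited table. They comprised 8 genes of the mevalonate steps, 11 of the sterol steps, 4 that control sterol synthesis or move sterol within the cell, 1 receptor for uptake, 3 of esterification and 3 of efflux. Of the 30, 29 passed the filter on low values (a mean of at least 1 RPKM, reads per kilobase of gene scaled to the reads of the library, over the 18 libraries). Soat1, the sterol acyltransferase of most tissues, lay between 0.34 and 0.69 RPKM in all libraries and was not tested.

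The mice were male ICR mice, an outbred stock, and were 10 weeks of age. Con mice received a regular diet and saline, and A10 mice received 10 mg/kg of AOS (alginate oligosaccharide), with no diet named in the labels. HS mice received a high-fat diet (HFD) and streptozotocin (STZ), which is toxic to the insulin-producing beta cells of the pancreas. HS+A10 mice had HFD, STZ and AOS at 10 mg/kg, and this group is known from the labels alone. A10-FMT and Con-FMT mice had HFD and STZ and were given microbiota by mouth (FMT), collected from the small intestine of donors dosed with AOS at 10 mg/kg or of control donors. The donor material of each kind was pooled, so each FMT group stands for a single inoculum. The A10, HS and FMT groups allowed the AOS, diet and microbiota comparisons, and HFD and STZ were always given together and cannot be told apart. The labels do not say whether the 3 libraries of a group came from separate mice, so the p-values measure only the spread between these libraries.

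Hepatocytes make cholesterol from acetyl-CoA through the mevalonate steps and the sterol steps, and they also take up, esterify and secrete it into bile. When sterol in the endoplasmic reticulum is scarce, SCAP escorts the transcription factor SREBP-2 (gene Srebf2) to the Golgi, where it is cleaved, and its nuclear part switches on the synthesis genes. INSIG proteins hold the complex back when sterol is plentiful. The efflux transporters are targets of the liver X receptors, which respond to oxysterols.

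All 7 hepatocyte markers were detected, with summed levels of 50741 to 74236 RPKM per library. Relative depth, read from the steps between low values, lay between 0.963 and 1.07 of the mean library, while the number of reads is unknown. HS replicate 1 differed from HS replicates 2 and 3 in the genes described here. It was the lowest of the 3 for all 8 mevalonate genes, all 11 sterol genes and 3 of the 4 control genes, and the highest for Scarb1 and for 2 of the 3 efflux genes. Over the 19 synthesis genes, the highest HS library exceeded the lowest by a median factor of 6.12, compared with 1.41 in Con and 1.16 in A10. Con replicate 3 lay between the other 2 Con libraries for 98.6% of 140 genes that differed at least 2-fold between those 2, and A10 replicate 3 did so for 96.3% of 135 genes, whereas the range in the other 16 libraries was 6.52% to 74.6%. The median distance from the nearest mixture of the other 2 libraries of the group was 0.05 and 0.06 on the log2 scale for these 2 and 0.07 to 0.15 for the other 16. Whether they are independent of the other libraries of their group could not be told from the labels, and if they are not, n is below 3 and the spread of Con and A10 is understated. Con-FMT replicate 3 held pancreatic acinar transcripts, with a summed level of 12594 RPKM over 7 acinar markers against at most 3.28 RPKM in any library of the other groups. Positions are those of GENCODE vM21 on GRCm38 (mm10), the build named in the submitters' processing notes. In that annotation exons of Fdps share 1124 bases with Gm43738 and those of Tm7sf2 share 532 bases with Vps51 on the same strand, and Fdft1, Ggps1 and Cyp51 share 774, 257 and 166 bases with Ctsb, Arid4b and Akap9 on the opposite strand, so part of their reads may belong to the neighbour. Counts of members called are given also without HS replicate 1 and without Con replicate 3 and A10 replicate 3 together.

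The synthesis genes were lower with HFD and STZ than without. In the mean of the 4 groups given HFD and STZ against the mean of Con and A10, 20 of the 24 synthesis and uptake genes fell and 1, the uptake receptor gene Scarb1, rose. In the same comparison 3 of the 5 tested esterification and efflux genes rose and none fell. The background was 20.3% of all 10204 tested genes higher and 12.1% lower (limma on log2(RPKM + 1), adjusted p under 0.05). The split of 2075 higher and 1235 lower became 1581 and 1910 under median scaling and 1742 and 1708 under quantile normalization. Dbp, a gene of the circadian clock, was 47.3 to 98.8 RPKM in the HS+A10 and FMT groups and 0.36 to 3.41 RPKM in Con, A10 and HS, so that for 9 of the 12 libraries with HFD and STZ clock phase cannot be told apart from the treatment. The median log2 change was -1.68 over the synthesis and uptake genes, 0.19 over the esterification and efflux genes and 0.04 over all tested genes. All log2 changes are differences of means of log2(RPKM + 1), a scale on which the change of low genes is understated.

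**Figure D1:**
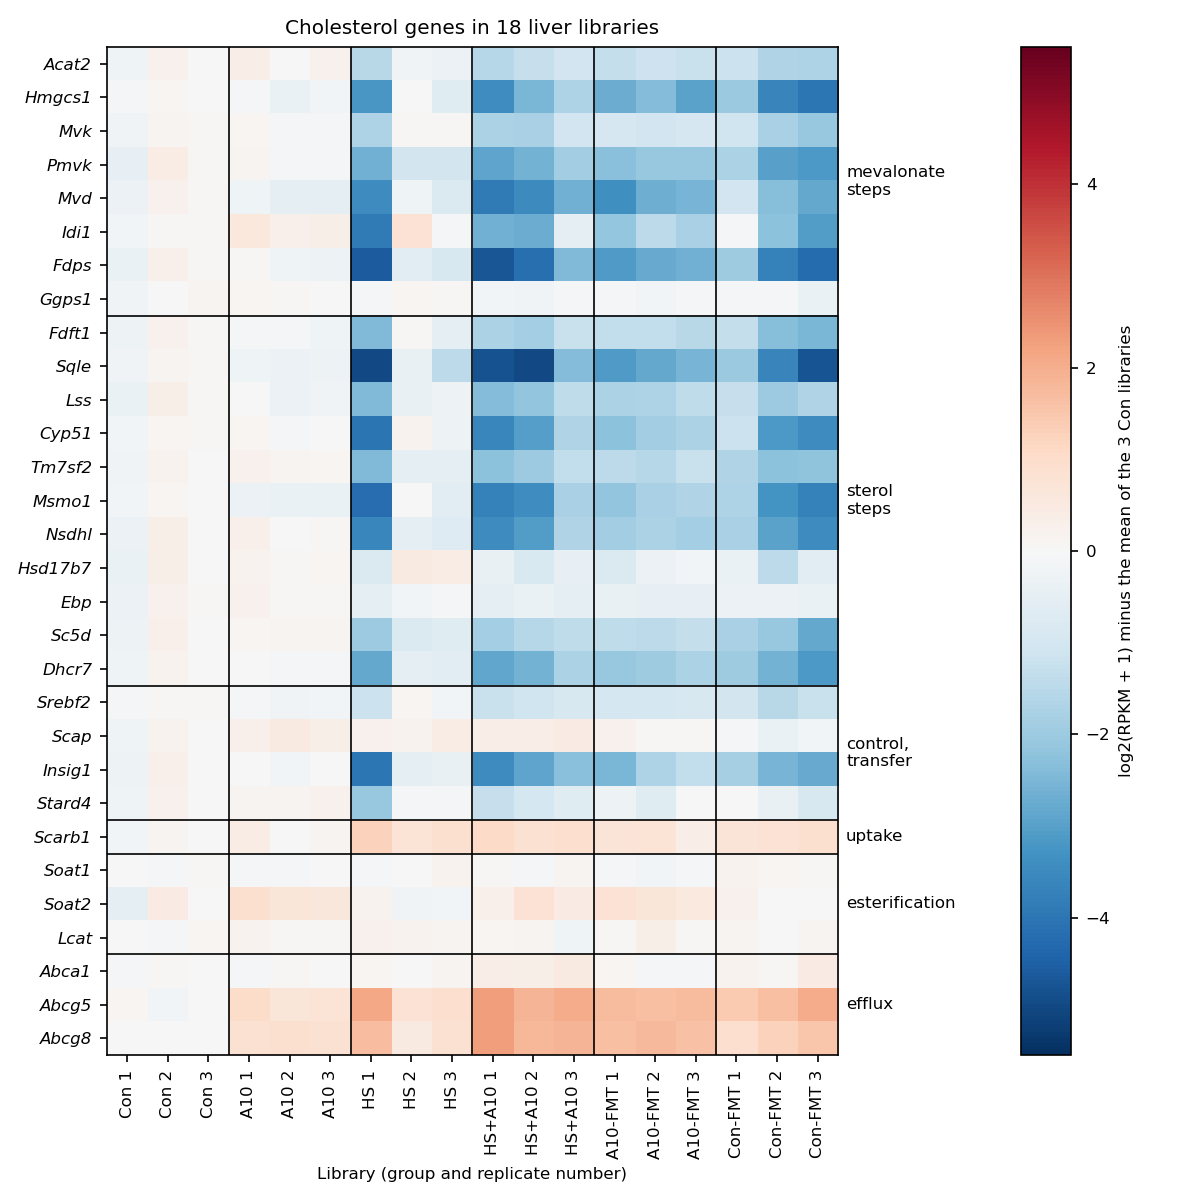
Level of each of the 30 genes (vertical axis, ordered by role) in each of the 18 libraries (horizontal axis), as log2(RPKM + 1) minus the mean of the 3 Con libraries, blue for lower and red for higher. HS replicate 1 and the HS+A10, A10-FMT and Con-FMT libraries were blue over most synthesis genes, whereas HS replicates 2 and 3 were nearer to Con.

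The mevalonate steps carry acetyl-CoA to the isoprenoids. Of the 8 genes, 7 fell and Ggps1, which makes geranylgeranyl diphosphate for protein prenylation off the route to sterol, changed by -0.12 (adjusted p = 0.144). Fdps (chr3:89093588-89101959, minus strand) makes farnesyl diphosphate, the last isoprenoid before squalene, and had the largest change of the 8. Its level was 225, 347 and 301 RPKM in Con, 297, 241 and 233 in A10, 11.01, 184 and 155 in HS, 9.99, 15.5 and 52.6 in HS+A10, 73.6, 21.0 and 14.1 in Con-FMT, and 32.0, 40.7 and 45.1 in A10-FMT. All 12 libraries with HFD and STZ lay below all 6 of Con and A10, with HS replicates 2 and 3 nearest to them (log2 change -2.90, SE 0.51, adjusted p = 0.000591). Hmgcs1 (chr13:119690379-119708260, plus strand), the cytosolic HMG-CoA synthase that commits acetoacetyl-CoA to the pathway, was 172, 193 and 175 RPKM in Con, 170.3, 141 and 161 in A10, 18.9, 176 and 113 in HS, 16.0, 30.5 and 54.4 in HS+A10, 43.5, 13.6 and 10.5 in Con-FMT, and 26.6, 33.1 and 22.7 in A10-FMT. Here HS replicate 2 reached the level of Con and the groups overlapped in that library alone (log2 change -2.34, SE 0.39, adjusted p = 0.000425). The other called genes were Mvd (mevalonate diphosphate decarboxylase) with a log2 change of -2.23, Pmvk (phosphomevalonate kinase) with -2.20, Idi1 (isopentenyl diphosphate isomerase) with -1.85, Acat2 with -1.28 and Mvk (mevalonate kinase) with -1.14, and adjusted p from 2.03e-05 to 0.0242. Idi1 had the largest of these and lost its call without the filter on low values (adjusted p = 0.0614) and without Con replicate 3 or A10 replicate 1 (adjusted p = 0.0506 in each case). Acat2 here is acetyl-CoA acetyltransferase 2, the enzyme of the first step, and not the acyltransferase Soat2, whose protein has been called by the same name.

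The sterol steps turn farnesyl diphosphate into squalene, lanosterol and cholesterol, and 10 of their 11 genes fell. Sqle (chr15:59315077-59331192, plus strand), the squalene epoxidase and one of the slow steps of the pathway, had the largest change of all members. Its level was 37.8, 47.6 and 44.5 RPKM in Con, 36.8, 34.8 and 35.2 in A10, 0.40, 32.0 and 15.3 in HS, 0.60, 0.42 and 7.54 in HS+A10, 9.73, 2.58 and 0.62 in Con-FMT, and 4.02, 5.35 and 6.46 in A10-FMT. The values with HFD and STZ did not reach the lowest value without, and they ranged from 0.4 RPKM, in HS replicate 1, to 32.0 RPKM, in HS replicate 2 (log2 change -3.02, SE 0.57, adjusted p = 0.000943). Sc5d (chr9:42251595-42264256, minus strand), the lathosterol oxidase near the end of the pathway, had the smallest adjusted p of the 30 genes. Its level was 136, 199.9 and 167 RPKM in Con, 181, 185 and 185 in A10, 41.1, 94.2 and 104 in HS, 44.4, 55.6 and 62.8 in HS+A10, 46.9, 38.8 and 22.7 in Con-FMT, and 62.1, 59.6 and 66.3 in A10-FMT. HS replicate 1 was again the lowest of its group, but the 3 HS libraries differed less here than for Sqle (log2 change -1.67, SE 0.18, adjusted p = 1.01e-05). Nsdhl, Cyp51, Msmo1, Dhcr7 and Tm7sf2, which demethylate or reduce the sterol nucleus, had log2 changes of -2.29, -2.18, -2.16, -2.04 and -1.70, and Lss (lanosterol synthase) and Fdft1 (squalene synthase) of -1.48 and -1.43. Ebp, the sterol isomerase, fell by 0.44, the smallest called decrease of the synthesis steps, and remained between 94.1 and 124 RPKM in all 12 libraries with HFD and STZ against 109 to 162 RPKM in the other 6. Hsd17b7, the 3-keto reductase, changed by -0.50 (adjusted p = 0.06) and did not pass.

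**Figure D2:**
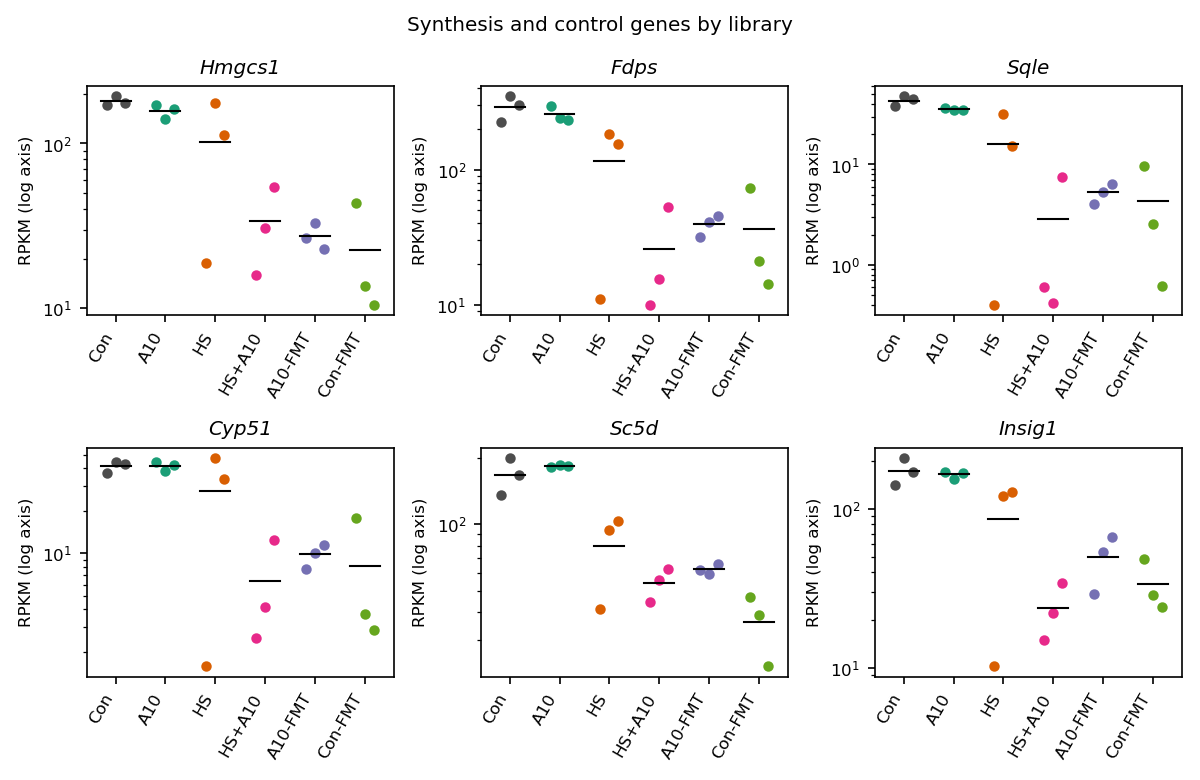
RPKM (log axis) of 5 synthesis genes and Insig1 in each library by group, 1 point per library and a bar at each group's mean. HS replicate 1 sits with the HS+A10 and FMT libraries, at 0.4 RPKM for Sqle, and HS replicates 2 and 3 sit above those libraries. HS replicate 2 reaches the Con and A10 libraries for Hmgcs1 and Cyp51 alone, and HS replicate 3 stays below them.

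The non-overlap was counted for every gene. For 8 of the 24 synthesis and uptake genes all 12 libraries with HFD and STZ lay below all 6 without, namely Fdps, Pmvk, Sqle, Nsdhl, Tm7sf2, Dhcr7, Sc5d and Insig1, compared with 1.05% of all tested genes. The other synthesis genes overlapped. Over the 19 synthesis genes, the summed level was 1271 to 1748 RPKM in Con, 1401 to 1581 RPKM in A10, 260, 1238 and 998 RPKM in HS, 275 to 521 RPKM in HS+A10, 414 to 470 RPKM in A10-FMT and 251 to 542 RPKM in Con-FMT. The libraries thus fell into a higher set of 8 (Con, A10 and HS replicates 2 and 3) and a lower set of 10. With the 3 HS libraries left out, 21 members fell and 4 rose, and the share of all genes is not reported here. The libraries with HFD and STZ then left were those with high Dbp, so clock phase cannot be told apart from the treatment there. With Con replicate 3 and A10 replicate 3 both left out, 18 fell and 3 rose. In that setting 769 of 10205 genes were lower and 1309 higher. The calls lost were those of Idi1 (adjusted p = 0.0865), Stard4 (adjusted p = 0.125) and Abca1 (adjusted p = 0.0765).

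The genes that control sterol synthesis or move sterol within the cell were mostly lower as well. Insig1 (chr5:28071363-28078662, plus strand), which is itself a target of SREBP and retains SCAP in the endoplasmic reticulum, was 142, 210.3 and 172 RPKM in Con, 173, 155 and 169 in A10, 10.2, 121 and 129 in HS, 14.9, 21.99 and 34.0 in HS+A10, 48.1, 28.6 and 24.2 in Con-FMT, and 29.1, 53.3 and 66.5 in A10-FMT. The 12 libraries with HFD and STZ lay below the other 6, and HS replicates 2 and 3 were the highest of the 12 (log2 change -2.16, SE 0.41, adjusted p = 0.001). Srebf2 (chr15:82147181-82205379, plus strand), the gene for SREBP-2, was 12.5, 14.2 and 14.2 RPKM in Con, 13.0, 11.8 and 12.2 in A10, 5.43, 14.8 and 12.3 in HS, 5.16, 5.91 and 6.95 in HS+A10, 6.18, 4.05 and 5.29 in Con-FMT, and 6.57, 6.51 and 6.81 in A10-FMT. HS replicates 2 and 3 overlapped Con, and the other 10 libraries with HFD and STZ lay between 4.05 and 6.95 RPKM (log2 change -0.85, SE 0.14, adjusted p = 0.000395). Stard4, which carries sterol between membranes, had a log2 change of -0.70 (adjusted p = 0.0388), and its call was lost without the filter (adjusted p = 0.0901) and when any 1 Con or A10 library (adjusted p = 0.0507 to 0.0897) or any of 5 libraries of HS+A10, A10-FMT and Con-FMT was left out. Scap, the escort itself, ranged from 20.1 to 36.8 RPKM over all libraries and changed by -0.03 (adjusted p = 0.788). Its 95% interval was -0.17 to 0.11.

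Promoters of the members were read to show what the synthesis genes share in sequence, since they moved together. RefSeq promoters of GRCm38.p6, running from 250 bases before to 50 bases after the transcription start, matched 24 of the 30 members, with none for Fdps, Fdft1, Sqle, Stard4, Scarb1 and Soat2. The letters are those of the reference strain and not of the ICR mice. A CCAAT box (CCAAT, or ATTGG on the other strand), the site of NF-Y, stood in 15 of the 16 promoters of synthesis steps, in 2 of 3 control genes and in 4 of 5 esterification and efflux genes, compared with 41.06% of 27025 genes. A GC box (GGGCGG or CCGCCC), the site of Sp1, stood in 14 of 16, 3 of 3 and 2 of 5, compared with 38.2% of all genes. NF-Y and Sp1 are known partners of SREBP at such promoters. The sterol regulatory element, searched as TCACNCCAC or GTGGNGTGA, was found in 1 of the 16, that of Hmgcs1, and in 1.44% of all genes. These exact letters are 1 form of a site that varies, and no match says only that they are not in this window. The motif searches do not overlap each other in their letters.

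The 150 bases before the start of 6 synthesis genes are printed to show how the boxes are spaced. These were the synthesis or control members with the largest change that had a single promoter and a stretch free of their own exons. Hmgcs1, Nsdhl and Mvd fell strongly, and Sc5d had the smallest adjusted p. Mvk had the most CCAAT boxes of those shown, and Ebp had the smallest called decrease of the synthesis steps. Capitals mark the sterol element, the CCAAT boxes and the GC boxes, and each sequence runs 5′ to 3′ on the strand of its gene. The shared stretch between the starts of Abcg5 and Abcg8 follows for contrast, on the plus strand.
Hmgcs1, chr13:119690201-119690350, plus strand: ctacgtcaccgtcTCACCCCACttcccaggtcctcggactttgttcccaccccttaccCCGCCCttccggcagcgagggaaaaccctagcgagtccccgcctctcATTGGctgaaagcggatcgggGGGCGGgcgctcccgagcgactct
Nsdhl, chrX:72918371-72918520, plus strand: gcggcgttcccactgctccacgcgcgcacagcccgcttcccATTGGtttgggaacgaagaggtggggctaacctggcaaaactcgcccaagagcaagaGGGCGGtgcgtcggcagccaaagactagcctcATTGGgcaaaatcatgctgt
Mvd, chr8:122443423-122443572, minus strand: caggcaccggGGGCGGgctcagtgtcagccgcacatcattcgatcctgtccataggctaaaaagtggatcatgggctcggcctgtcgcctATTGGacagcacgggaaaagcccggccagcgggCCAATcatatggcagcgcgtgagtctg
Sc5d, chr9:42264301-42264450, minus strand: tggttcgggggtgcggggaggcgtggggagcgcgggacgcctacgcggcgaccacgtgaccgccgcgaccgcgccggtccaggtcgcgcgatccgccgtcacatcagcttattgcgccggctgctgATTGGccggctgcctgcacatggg
Mvk, chr5:114444119-114444268, plus strand: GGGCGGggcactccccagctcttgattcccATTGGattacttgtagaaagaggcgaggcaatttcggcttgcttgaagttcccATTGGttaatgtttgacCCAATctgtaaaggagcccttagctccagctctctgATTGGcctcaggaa
Ebp, chrX:8193513-8193662, minus strand: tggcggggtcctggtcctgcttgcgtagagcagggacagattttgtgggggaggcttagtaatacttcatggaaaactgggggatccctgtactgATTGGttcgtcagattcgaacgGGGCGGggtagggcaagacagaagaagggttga
Abcg5 and Abcg8, chr17:84683012-84683120, plus strand: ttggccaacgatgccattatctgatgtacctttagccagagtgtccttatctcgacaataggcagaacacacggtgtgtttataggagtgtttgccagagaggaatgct

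In Hmgcs1 the sterol element lay 137 to 129 bases before the start and the CCAAT box 45 to 41 bases before it, with GC boxes at 92 to 87 and 24 to 19 bases. Mvk held 4 CCAAT boxes and 1 GC box, Nsdhl and Mvd 2 CCAAT boxes and 1 GC box each, Ebp 1 of each and Sc5d 1 CCAAT box. Mvk and Ebp thus held the same kinds of boxes as Nsdhl and Mvd, while their log2 changes were -1.14 and -0.44 against -2.29 and -2.23. Abcg5 and Abcg8 start 109 bases apart on opposite strands (Abcg5 at 84683011, minus strand, and Abcg8 at 84683121, plus strand, chromosome 17), and none of the 3 motifs was in the stretch between. The promoter windows of both genes run past it and each holds a CCAAT box.

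Uptake and efflux genes moved the other way. Scarb1 (chr5:125277087-125341094, minus strand) encodes SR-BI, which takes cholesteryl ester from high-density lipoprotein into the hepatocyte. Its level was 46.2, 58.3 and 51.5 RPKM in Con, 69.3, 53.1 and 57.3 in A10, 125, 88.8 and 95.8 in HS, 110.0, 92.2 and 99.7 in HS+A10, 86.4, 90.8 and 97.1 in Con-FMT, and 84.3, 88.2 and 66.7 in A10-FMT. Its range was 66.7 to 125 RPKM with HFD and STZ and 46.2 to 69.3 RPKM without, and A10-FMT replicate 3 was the library in which the 2 ranges met (log2 change 0.73, SE 0.09, adjusted p = 2.26e-05). Abcg5 and Abcg8 form the heterodimer that secretes sterol into bile. Abcg5 was 17.66, 14.7 and 16.6 RPKM in Con, 34.1, 26.4 and 27.8 in A10, 74.5, 28.9 and 32.2 in HS, 82.9, 61.5 and 70.4 in HS+A10, 45.9, 53.6 and 70.4 in Con-FMT, and 57.4, 52.6 and 56.1 in A10-FMT. Con was lowest, A10 and HS replicates 2 and 3 were intermediate, and HS replicate 1 stood with the HS+A10 and FMT libraries (log2 change 1.29, SE 0.16, adjusted p = 3.00e-05). Abcg8 was 11.2, 11.3 and 10.9 RPKM in Con, 20.4, 21.6 and 20.8 in A10, 38.6, 16.1 and 20.5 in HS, 58.2, 42.2 and 43.7 in HS+A10, 21.8, 28.1 and 33.7 in Con-FMT, and 36.9, 40.8 and 35.8 in A10-FMT. Con was again lowest, and HS+A10 was highest (log2 change 1.05, SE 0.14, adjusted p = 5.41e-05). Their gene bodies span chr17:84658234-84683011 (Abcg5, minus strand) and chr17:84676302-84700333 (Abcg8, plus strand). Exons of the 2 genes share 82 bases on opposite strands, and the strand of the libraries was not stated, so reads there cannot be assigned.

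Abca1 (chr4:53030787-53159895, minus strand), which loads cholesterol onto apolipoprotein A-I, rose by a small amount. It ranged from 14.5 to 16.6 RPKM without HFD and STZ and from 15.0 to 22.7 RPKM with them (log2 change 0.19, SE 0.06, adjusted p = 0.026). The call was lost when libraries were scaled to the same median (adjusted p = 0.0628) or quantile normalized (adjusted p = 0.0753), and without Con replicate 1 (adjusted p = 0.0697) or A10 replicate 1 (adjusted p = 0.0759). Of the esterification genes, Soat2 (chr15:102150526-102163469, plus strand), the acyltransferase of hepatocytes and intestine, was 6.59, 13.5 and 9.65 RPKM in Con, 18.6, 15.9 and 15.5 in A10, 11.01, 8.16 and 8.43 in HS, 11.7, 17.6 and 13.5 in HS+A10, 11.4, 9.79 and 9.56 in Con-FMT, and 17.1, 15.5 and 14.3 in A10-FMT. The group means were higher in A10, HS+A10 and A10-FMT than in Con, HS and Con-FMT, while Con replicate 2 lay above HS+A10 replicate 1, and the comparison by HFD and STZ gave -0.07 (adjusted p = 0.691). Lcat, the plasma enzyme that esterifies cholesterol on lipoproteins, lay between 252 and 375 RPKM in every library and changed by 0.06 (adjusted p = 0.485).

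**Figure D3:**
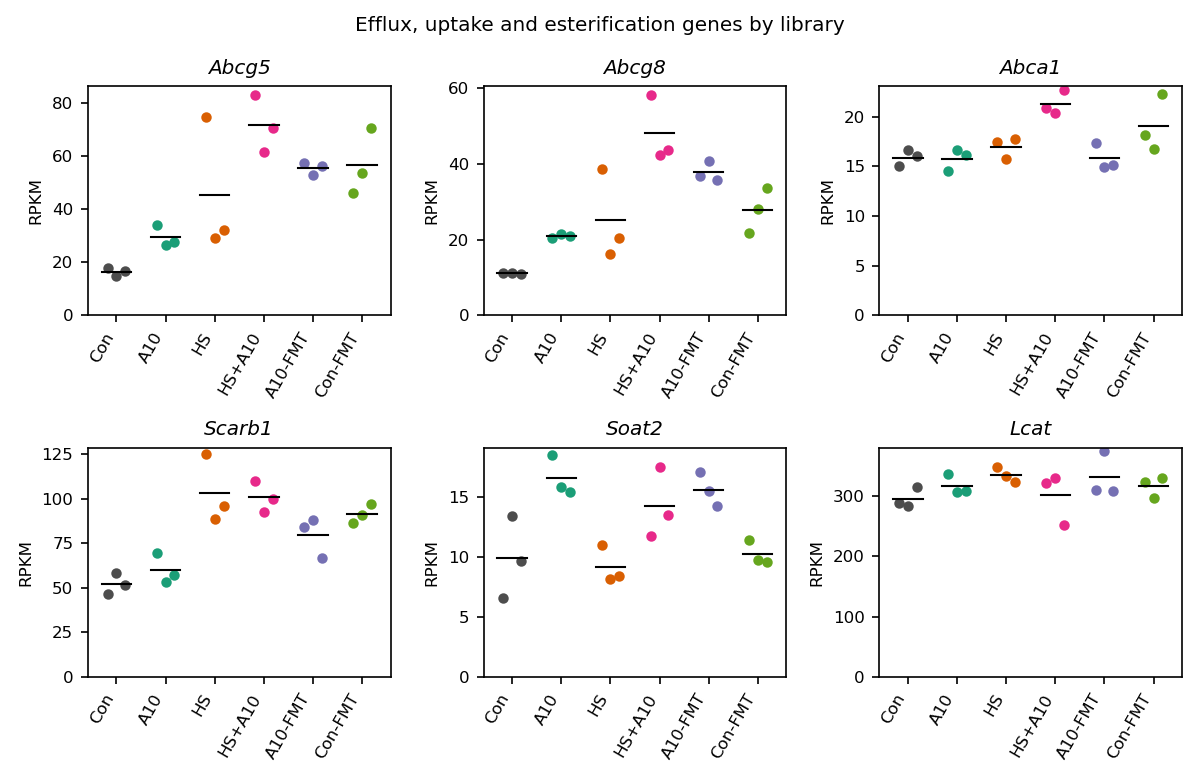
RPKM of the efflux genes Abcg5, Abcg8 and Abca1, the uptake gene Scarb1 and the esterification genes Soat2 and Lcat in each library by group, on axes from 0, 1 point per library and a bar at each group's mean. Abcg5 lay at 14.65 to 17.66 RPKM in Con and 61.5 to 82.9 RPKM in HS+A10, whereas Lcat showed little difference between groups.

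**Figure D4:**
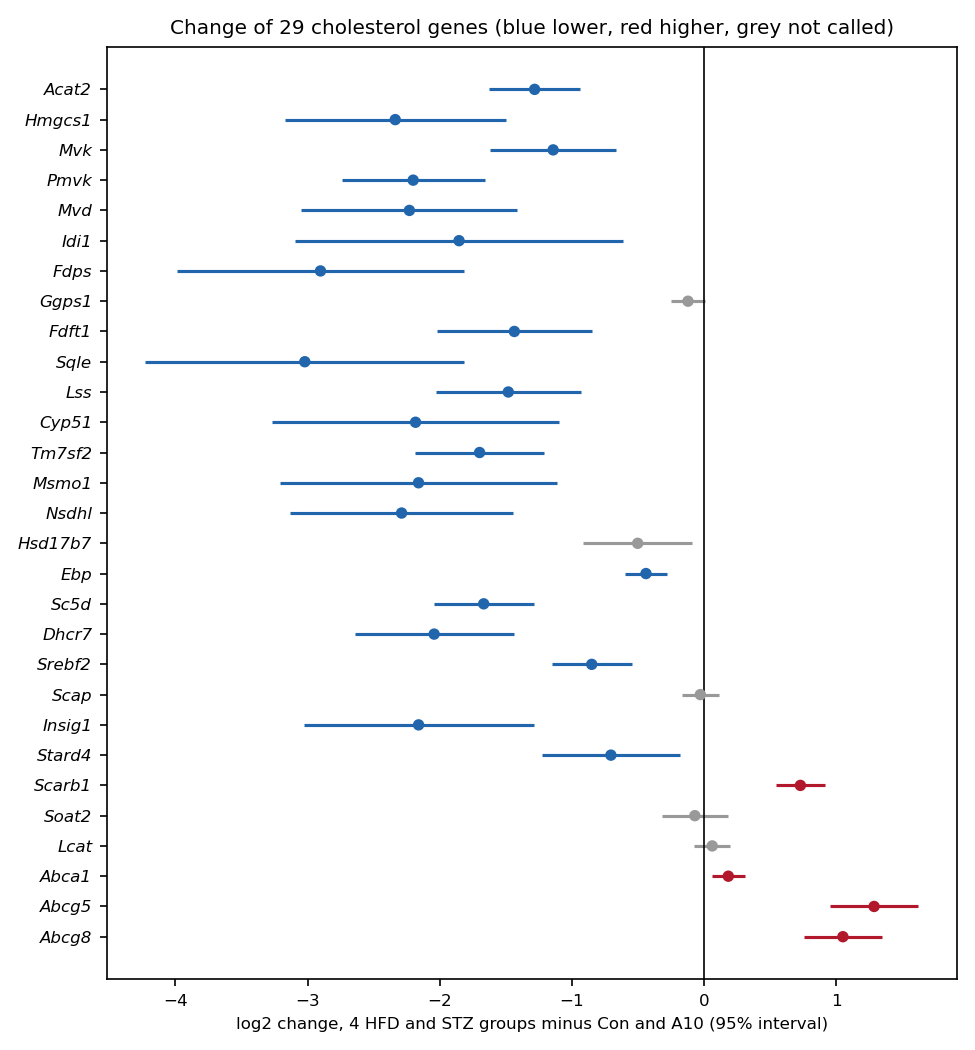
Log2 change of the 29 tested genes in the 4 groups with HFD and STZ against Con and A10 (horizontal axis, with 95% interval), blue for called lower, red for called higher and grey for not called. The intervals of most synthesis genes lay left of 0 and those of Scarb1, Abcg5 and Abcg8 right of it, with Sqle farthest left at -3.02.

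The comparison of HS with Con addressed HFD and STZ without AOS or transfer. Of the members, 3 fell (Pmvk, Tm7sf2 and Sc5d) and 3 rose (Scarb1, Abcg5 and Abcg8), where the background was 1.87% of all genes lower and 15.9% higher. Without further scaling 1618 genes were higher and 191 lower, and the split became 395 and 494 under median scaling and 486 and 390 under quantile normalization, with the median of all genes at 0.14 before scaling. Pmvk changed by -1.56 ± 0.42 (SE; adjusted p = 0.0199), Tm7sf2 by -1.16 ± 0.38 (SE; adjusted p = 0.0437) and Sc5d by -1.15 ± 0.29 (SE; adjusted p = 0.0161). Scarb1 changed by 0.97 ± 0.14 (SE; adjusted p = 0.0007), Abcg5 by 1.29 ± 0.26 (SE; adjusted p = 0.00494) and Abcg8 by 1.01 ± 0.23 (SE; adjusted p = 0.00877). The direction of these 6 was the same under both scalings. The median over the synthesis and uptake genes was -1.11, with 20 of 24 below 0, and larger changes such as that of Sqle (-2.28, adjusted p = 0.0947) and Fdps (-2.03, adjusted p = 0.0973) did not pass.

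The lower calls rested in part on HS replicate 1. Without it 4 members were called, Sc5d lower (-0.74, adjusted p = 0.0443) and Scarb1 (0.82), Abcg5 (0.87) and Abcg8 (0.66) higher, where 1.20% of all genes were lower and 14.3% higher, and the synthesis and uptake median was -0.28. Pmvk (-1.02, adjusted p = 0.0651) and Tm7sf2 (-0.53, adjusted p = 0.111) lost their call, while Fdps was -0.76 (adjusted p = 0.397) and Srebf2 -0.01 (adjusted p = 0.977). Without HS replicate 2, by contrast, 8 fell and 3 rose, where 137 of 10183 genes were lower and 929 higher. Without HS replicate 3, 6 fell and 3 rose, where 163 of 10199 genes were lower and 1122 higher. With Con replicate 3 and A10 replicate 3 both left out, only Scarb1, Abcg5 and Abcg8 were called. In that setting 644 of 10205 genes were higher and 56 lower. Tm7sf2 also lost its call without any 1 Con library (adjusted p = 0.0845 to 0.101), and Pmvk without Con replicate 2 (adjusted p = 0.0604) or Con replicate 3 (adjusted p = 0.0585). The calls of Scarb1, Abcg5 and Abcg8 were present with each HS library left out in turn. With only the HS and Con libraries in the fit, Scarb1 alone was called. Abcg5 (adjusted p = 0.0559), Abcg8 (adjusted p = 0.0669), Pmvk (adjusted p = 0.0742), Sc5d (adjusted p = 0.0791) and Tm7sf2 (adjusted p = 0.151) lost their call there.

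AOS given to mice that were not labelled as having HFD and STZ changed no member past the threshold. In A10 against Con none of the 29 was called by limma, against 0.0686% of all genes. Of the 29, 4 (Soat2, Abcg8, Scap and Abcg5) had an unadjusted p under 0.05, as had 1418 of all 10204 genes. Soat2 changed by 0.74 ± 0.19 (SE; adjusted p = 0.147), Abcg8 by 0.86 ± 0.23 (SE; adjusted p = 0.15), Abcg5 by 0.81 ± 0.26 (SE; adjusted p = 0.21) and Scap by 0.36 ± 0.11 (SE; adjusted p = 0.189). Abcg8 was 20.4 to 21.6 RPKM in A10 and 10.9 to 11.3 RPKM in Con, and Abcg5 was 26.4 to 34.1 RPKM and 14.65 to 17.66 RPKM, so neither gene overlapped between the groups, as was so for 19.6% of all genes in the same direction. The spread in the test is estimated over all 6 groups. With HS replicate 1 left out of it, Abcg8 was called (0.86, adjusted p = 0.0332) with the same change, and Abcg5 was at adjusted p = 0.0504, where 0.0687% of all genes were higher and 0.0294% lower. Without Con replicate 2, Soat2 alone was called (log2 change 0.97, adjusted p = 0.0226), where 49 of 10212 genes were higher. The synthesis and uptake median was 0.00, with 12 genes above 0 and 12 below, and Fdps (-0.16), Sqle (-0.27) and Sc5d (0.15) had 95% intervals of -1.94 to 1.61, -2.24 to 1.70 and -0.47 to 0.77.

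In mice with HFD and STZ, AOS was followed by higher Abcg8. In HS+A10 against HS, Abcg8 rose (log2 change 0.99, SE 0.23, adjusted p = 0.0191) and no other member was called, where 2.95% of all genes were higher and 4.37% lower. The split of 301 higher and 446 lower became 610 and 370 under median scaling and 601 and 452 under quantile normalization, and Abcg8 was called higher under both, together with Soat2 and Abca1. Abcg8 lay at 42.2 to 58.2 RPKM in HS+A10 and at 16.1 to 38.6 RPKM in HS, with no overlap, as for 11.6% of all genes in that direction. Abcg5 changed by 0.77 (adjusted p = 0.0775), Abca1 by 0.31 (adjusted p = 0.061) and Soat2 by 0.58 (adjusted p = 0.0756). The synthesis and uptake genes had a median of -0.90, with 23 of 24 below 0, and none passed, the nearest being Mvd (-1.83, adjusted p = 0.0862) and Srebf2 (-0.67, adjusted p = 0.0889). Mvd was 0.60, 1.13 and 2.86 RPKM in HS+A10 and 1.15, 19.2 and 12.6 RPKM in HS, so that HS replicate 1 lay within the HS+A10 range.

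The calls depended on which HS libraries were in the fit. With HS replicate 1 left out, 19 synthesis and uptake genes fell and 3 other members rose (Abcg5, Abcg8 and Soat2), where 7.68% of all genes were lower and 4.42% higher, and the synthesis and uptake median was -1.53. Fdps was then -2.99 (adjusted p = 0.0062), Insig1 -2.43 (adjusted p = 0.00118), Srebf2 -1.06 (adjusted p = 0.000635) and Abcg5 1.19 (adjusted p = 0.000974). No member was called without HS replicate 2, without HS replicate 3 or without HS+A10 replicate 1. In these settings 104, 91 and 71 of all genes were higher and 117, 125 and 81 lower. The labels give no ground for leaving out any HS library, and both sets of values are given for that reason.

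Whether AOS acted differently with and without HFD and STZ was tested as the change in HS+A10 against HS minus that in A10 against Con. No member was called by limma, against 0.00980% of all genes. Of the members, 2 (Abca1 and Acat2) had an unadjusted p under 0.05, as had 1320 of all 10204 genes. Acat2 differed by -0.83 (adjusted p = 0.363), Ebp by -0.35 (adjusted p = 0.4) and Abca1 by 0.32 (adjusted p = 0.339). All 24 synthesis and uptake genes were below 0, with a median of -0.88 against -0.09 over all genes. Without HS replicate 1, Mvk, Tm7sf2, Acat2, Srebf2 and Insig1 were called lower, Insig1 by -2.36 (adjusted p = 0.0376), where 0.942% of all genes were.

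The transfer of microbiota from AOS-dosed donors gave a similar picture of few calls. In A10-FMT against HS, Soat2 (log2 change 0.71, SE 0.19, adjusted p = 0.0159) and Abcg8 (log2 change 0.67, SE 0.23, adjusted p = 0.0447) rose, where 2.09% of all genes were higher and 21.0% lower. The split of 213 higher and 2145 lower became 632 and 499 under median scaling and 573 and 541 under quantile normalization, with the median of all genes at -0.16 before scaling. Soat2 lay at 14.3 to 17.1 RPKM in A10-FMT, above the 8.16 to 11.01 RPKM of HS (4.59% of all genes lay wholly higher), while Abcg8, at 35.8 to 40.8 RPKM, overlapped HS replicate 1 at 38.6 RPKM. Scarb1 changed by -0.36 (adjusted p = 0.0736). The synthesis and uptake median was -0.46, with 23 of 24 below 0. Without HS replicate 1, 16 synthesis and uptake genes fell and Abcg5, Abcg8 and Soat2 rose, where 20.9% of all genes were lower and 2.02% higher, with Hmgcs1 at -2.33 (adjusted p = 0.00516) and Fdps at -2.09 (adjusted p = 0.0233). None was called without HS replicate 2 or without HS replicate 3, where 160 and 143 of all genes were higher and 1319 and 1379 lower. Soat2 alone was called, as higher, without any 1 of the A10-FMT libraries, where 146 to 162 of all genes were higher.

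With microbiota from control donors the share of members called was near that of all genes. In Con-FMT against HS 6 of the 29 tested members fell and none rose, where 19.0% of all genes were lower and 4.61% higher. The split of 470 higher and 1943 lower became 847 and 1156 under median scaling and 827 and 1026 under quantile normalization, with the median of all genes at -0.12 before scaling. Scap changed by -0.47 ± 0.11 (SE; adjusted p = 0.00648), Srebf2 by -0.86 ± 0.23 (SE; adjusted p = 0.015), Sc5d by -1.07 ± 0.29 (SE; adjusted p = 0.0153), Acat2 by -0.85 ± 0.26 (SE; adjusted p = 0.0302), Mvk by -1.15 ± 0.37 (SE; adjusted p = 0.0331) and Hmgcs1 by -1.92 ± 0.64 (SE; adjusted p = 0.0416). Scap, at 20.1 to 25.1 RPKM in Con-FMT, lay below all HS libraries (30.1 to 35.3 RPKM), as did 27.9% of all genes, and HS replicate 1 did not stand apart for it. Without HS replicate 1, 20 members fell and Abcg5 (0.85, adjusted p = 0.00331) and Abcg8 (0.57, adjusted p = 0.0243) rose, where 15.5% of all genes were lower and 3.23% higher. Scap alone was called without HS replicate 2 or without HS replicate 3, where 1452 of 10183 and 1573 of 10199 genes were lower. Without Con-FMT replicate 1, 10 members were called lower, where 1558 of 10216 genes were. Without Con-FMT replicate 2 it was 2 (Sc5d and Scap), where 1352 of 10216 genes were lower. Without Con-FMT replicate 3, the library with acinar transcripts, it was 2 (Scap and Srebf2), where 1831 of 10170 genes were lower.

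The groups that differ in the donor alone are A10-FMT and Con-FMT. No member was called by limma between them, against 6.72% of all genes higher and 12.0% lower. Of the 29 tested members 4 had an unadjusted p under 0.05, as had 3318 of all 10204 genes. Soat2 differed by 0.56 ± 0.19 (SE; adjusted p = 0.0504), Sc5d by 0.84 ± 0.29 (SE; adjusted p = 0.0567) and Scap by 0.30 ± 0.11 (SE; adjusted p = 0.0667), all higher in A10-FMT. Soat2 lay at 14.3 to 17.1 RPKM in A10-FMT and 9.56 to 11.4 RPKM in Con-FMT, and Sc5d at 59.6 to 66.3 RPKM and 22.7 to 46.9 RPKM, so neither overlapped, where 12.1% of all genes lay wholly higher in A10-FMT. The synthesis and uptake median was 0.46, with 21 of 24 above 0. Median scaling and quantile normalization, which turned the split of 686 higher and 1228 lower into 1328 and 944 and into 1147 and 971, called Soat2, Sc5d and Scap. With HS replicate 1 left out of the estimate of the spread, Sc5d, Mvk, Tm7sf2, Abcg8 and Soat2 were called higher, where 7.14% of all genes were higher and 12.6% lower, with Mvk at 0.71 (adjusted p = 0.0346) and Abcg8 at 0.45 (adjusted p = 0.0404). Without Con-FMT replicate 1 Sc5d alone was called (adjusted p = 0.0364), as higher, where 553 of 10216 genes were higher. Without Con-FMT replicate 2 Abca1 alone was called, as lower, where 1078 of 10216 genes were. Without Con-FMT replicate 3, the library with acinar transcripts, none was called, where 651 of 10170 genes were higher and 982 lower. The synthesis and uptake median was 0.84, 0.27 and 0.21 without Con-FMT replicates 1, 2 and 3 in turn. The HS libraries enter the 3 comparisons with HS, which therefore share their error.

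**Figure D5:**
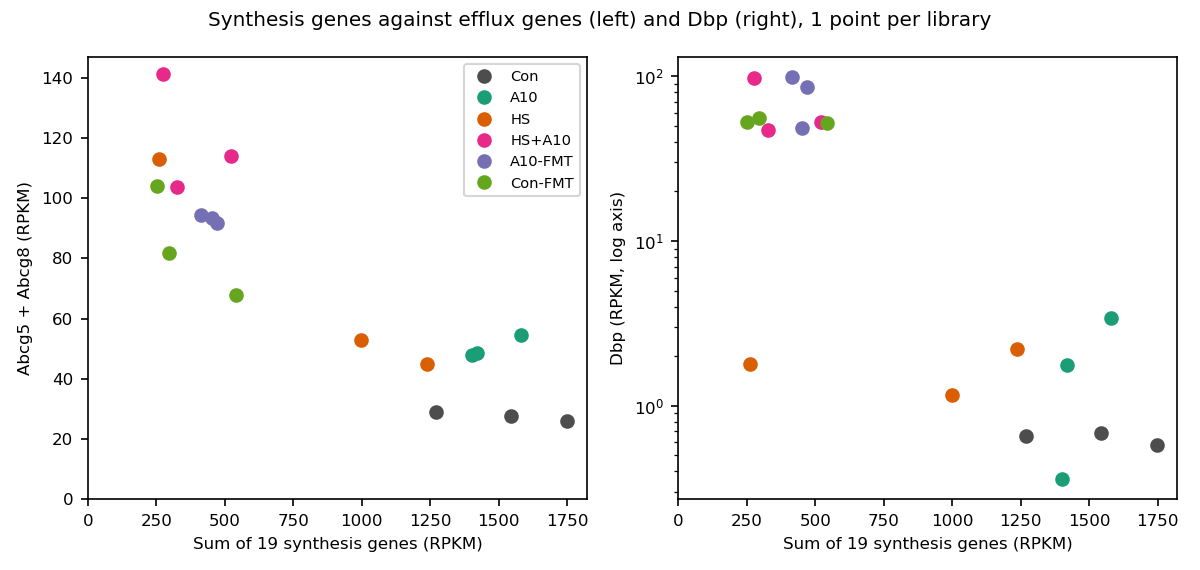
Sum of the 19 synthesis genes in RPKM (horizontal axes) against the summed RPKM of Abcg5 and Abcg8 (left) and against Dbp in RPKM on a log axis (right), 1 point per library coloured by group. HS replicate 1, at a synthesis sum of 260 RPKM, lay beside the HS+A10 and FMT libraries on the left but had low Dbp, as did the other HS, Con and A10 libraries, on the right.

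Outside the members, the genes whose levels over the 18 libraries were most like the mean standardised profile of the 19 synthesis genes were Rdh11 (r = 0.97), a retinol dehydrogenase, Mmab (0.96), an enzyme of cobalamin metabolism, Gm38481 (0.96), Slc25a1 (0.95), the mitochondrial citrate carrier, Cyp27a1 (0.95), sterol 27-hydroxylase, Fasn (0.95), fatty acid synthase, Cyb5b (0.94), Pstpip2 (0.94) and Acacb (0.94), an acetyl-CoA carboxylase. These values are measures of likeness over libraries that fall into 2 sets, and no p is given.

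Other genes of sterol handling were described from a list of 22, all of which were tested. Against Con and A10, the 4 groups with HFD and STZ had 5 of them higher and 8 lower, where 20.3% of all genes were higher and 12.1% lower. Higher were Npc1 (0.86), which exports cholesterol from lysosomes, Nceh1 (1.03), Mylip (0.51), a ubiquitin ligase for lipoprotein receptors, Abcg1 (0.41) and Stard5 (0.39). Lower were Acss2 (-2.25), Acly (-1.27) and Aacs (-1.14), which supply acetyl-CoA or acetoacetyl-CoA, Tmem97 (-0.89), Lbr (-0.61), a sterol reductase, Insig2 (-0.61), Npc2 (-0.39) and Lipa (-0.31), with adjusted p of the 13 from 3.02e-06 to 0.0128. In HS against Con 4 were higher and 3 lower, where 15.9% of all genes were higher and 1.87% lower. Npc1 was at 0.87 (adjusted p = 0.000888) and Acss2 at -1.81 (adjusted p = 0.00485). None of the 22 was called in A10 against Con or for the difference between the AOS changes. In HS+A10 against HS, Npc1 (0.70, adjusted p = 0.00789) and Nceh1 (0.79, adjusted p = 0.0219) rose, where 2.95% of all genes were higher. In the FMT groups against HS 4 (A10-FMT) and 6 (Con-FMT) of the 22 fell and none rose, where 21.0% and 19.0% of all genes fell, with Insig2 at -1.60 and -1.03, and between the FMT groups Npc1 and Tmem97 were among those higher with the AOS donors.

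Fatty acid synthesis, which is driven mainly by SREBP-1c in liver, was lower as well. Of 7 listed genes 5 fell with HFD and STZ, where 12.1% of all genes were lower. Among the 5 were Scd1 (-5.41, adjusted p = 6.02e-07), the stearoyl-CoA desaturase, and Fasn (-2.33, adjusted p = 0.000233). Srebf1 (-0.18, adjusted p = 0.464) and Thrsp (-0.55, adjusted p = 0.323) did not pass. Fasn was 4.37, 32.0 and 34.0 RPKM in the HS libraries, so replicate 1 was the low one here too. In HS against Con Scd1 and Thrsp fell, Thrsp rose in both FMT groups against HS, and Srebf1 rose with AOS donors over control donors (1.29, adjusted p = 0.0066).

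Clock genes, which follow the time of day and feeding, moved with the groups. Dbp, a clock output gene, was 0.36 to 3.41 RPKM in Con, A10 and HS and 47.3 to 98.8 RPKM in HS+A10, A10-FMT and Con-FMT (log2 change 3.82, SE 0.22, adjusted p = 3.44e-08). All 11 listed clock genes were called with HFD and STZ, 8 higher and 3 lower, where 20.3% of all genes were higher and 12.1% lower. The time of day at collection was not given in the sources used here, and for HS+A10 and the FMT groups against HS, Con or A10 it cannot be told apart from the treatment. HS replicate 1 had Dbp at 1.79 RPKM with a synthesis sum of 260 RPKM, and HS replicates 2 and 3 had Dbp at 2.22 and 1.17 RPKM with sums of 1238 and 998 RPKM. In HS against Con, where Dbp was low on both sides, 2 clock genes were higher and 1 lower. The shares of all genes there were 15.9% and 1.87%. In A10-FMT against Con-FMT no clock gene was called. In A10 against Con 2 of the 11 were higher (limma, adjusted p = 0.0076 and 0.016), where 0.0686% of all genes were called. For the difference between the AOS changes 1 was higher (adjusted p = 0.00978), where 0.00980% of all genes were called. Clock phase cannot be told apart from AOS there either. With all libraries, the synthesis and uptake median was -1.11 in HS against Con and -1.68 in the 4 groups with HFD and STZ against Con and A10. Without HS replicate 1 these medians were -0.28 and -1.52. The part of the clock genes in these results was not tested.

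Other cell types were followed by marker lists. Summed over 6 stellate cell markers, the level was 72.0 to 90.4 RPKM in Con and A10 and 86.4 to 175 RPKM with HFD and STZ, highest in HS (112 to 175 RPKM). Of the 6, 5 were called higher with HFD and STZ, where 20.3% of all genes were. For 7 Kupffer cell markers the sum was 41.9 to 53.9 RPKM in A10-FMT and 62.7 to 108 RPKM in HS. Of the 7, 5 were called lower in A10-FMT against HS, where 21.0% of all genes were. Sums of 5 sinusoidal endothelial markers were 28.6 to 61.3 RPKM and those of 5 bile duct markers 17.03 to 44.4 RPKM, and those of 5 lymphocyte markers reached 5.15 RPKM. No marker was at 0 in all libraries, and the part of these cells in the results was not tested. In whole liver, fewer cells of a type and less RNA per cell cannot be told apart.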

How the data were processed

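Liver RNA was extracted with Trizol, and poly(A) RNA was enriched with oligo(dT) beads before libraries were made. The authors counted reads per gene and deposited RPKM values (reads per kilobase, scaled to the reads of each library) with 2 decimals in 1 table of 19057 genes and 18 libraries. For 26 genes the symbol reads as a date, and 3 symbols are listed repeatedly, none of them a member. The submitters' processing notes name Bowtie 0.12.2 and mm10, whereas the study's methods name SOAPaligner, so the aligner is uncertain. The strand setting was not given in the sources used here. Read numbers are unknown, so no counting interval or detection limit was computed, and precision rests on the 3 libraries of a group.

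RPKM values were used as deposited, as log2(RPKM + 1). The 10204 genes whose mean over all libraries reached 1 RPKM were fitted with limma 3.58.1 in R 4.3.3, with 1 mean for each of the 6 groups and a variance trend, and compared in 8 two-sided contrasts. P-values were adjusted over all tested genes by the Benjamini-Hochberg method and called under 0.05. The fit was tested on simulated data. DEGseq, the test of the study, was not used here because it ignores the spread between replicates. Promoters and figures used Python 3.11.15 (numpy 2.4.6, pandas 2.3.3, matplotlib 3.10.9). Groups came from the labels.

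The members, gene lists and tests were chosen with earlier results of these data known. Named are the members called in each comparison, or the 3 with the smallest p where fewer than 3 were called, the members with the largest change in each role, and the 10 genes most like the synthesis profile by Pearson correlation. Genes named because their call changed when a library was left out were chosen after their values were seen. Some genes under these rules are not reported here.

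Alternatives tried were no filter, a pseudocount of 0.1, median scaling, quantile normalization, a replicate block, only the groups compared, the threshold of the study (adjusted p up to 0.001, with a log2 change of 1 or more in size), a stricter tolerance for relative depth and each replicate left out. Leaving out Con replicate 3 and A10 replicate 3 together, leaving out the HS libraries and the values of HS replicate 1 alone were chosen after seeing the data.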

Additional observations from a re-analysis of the deposited data

How the results depend on the processing

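Direction was followed for the members called in each comparison, or the 3 with the smallest p where fewer than 3 were called. None of these reversed under an alternative. Other members did reverse: in HS against Con, Mvk and Idi1 were below 0 with all libraries. Without HS replicate 1 they were at 0.07 and 0.34. The median of all genes in HS against Con went from 0.14 to -0.02 under median scaling. In A10-FMT against HS it went from -0.16 to 0.01. Among 1005 single-gene values under alternatives, 878 stayed on the same side of the threshold, 111 lost and 16 gained a call. The counts of members called depended on the setting most where HS was a control. Without the filter they were 1 for A10-FMT and 3 for Con-FMT against HS. Median scaling gave 3 for HS+A10 against HS, 3 for Con-FMT against HS and 3 for A10-FMT against Con-FMT, and quantile normalization gave 3 for HS+A10 against HS and 3 for A10-FMT against Con-FMT. With only the groups compared in the fit they were 1 for HS against Con, 2 for A10 against Con, 0 for HS+A10 against HS, 1 for A10-FMT against HS, 0 for Con-FMT against HS and 1 for A10-FMT against Con-FMT. At the threshold of the study 13 were called with HFD and STZ against without (2 higher, 11 lower) and 0 in HS against Con and in HS+A10, A10-FMT and Con-FMT against HS. With Con replicate 3 and A10 replicate 3 left out it was 3 for HS against Con. Shares of all genes are not given for the filter, groups-compared and threshold settings, so these counts cannot be set against other genes. The cause of these shifts was not tested.

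Leaving out each replicate of the groups compared in turn gave 21 to 25 members for HFD and STZ against without, 4 to 11 for HS against Con, 0 to 1 for A10 against Con, 0 to 22 for HS+A10 against HS, 0 to 19 for A10-FMT against HS, 1 to 22 for Con-FMT against HS, 0 to 1 for A10-FMT against Con-FMT and 0 to 5 for the difference between the AOS changes. In the same order, the number of all genes called was 2626 to 3458, 847 to 1599, 0 to 72, 152 to 1233, 1297 to 2586, 1758 to 2256, 1178 to 1636 and 0 to 118. The same replicate numbers recur in every group, and whether they pair the libraries was not settled, since pairs with different numbers were not compared. The correlation of deviations from the group means over 45 same-number pairs ran from -0.126 to 0.262, with 12 over 0.1. With the replicate block 1 member was called in A10-FMT against HS and 5 in Con-FMT against HS, with Abcg8 (adjusted p = 0.0538) and Hmgcs1 (adjusted p = 0.0529) just past the threshold, and the other counts were the same. Counts of all genes called moved by over 1.5 times in 49 of 126 alternatives. With a stricter tolerance the relative depth was 0.972 to 1.04 over 29 genes, compared with 0.963 to 1.07 over 88.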
